A study of Mus musculus with 12 samples.

Results

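Genes of fatty acid oxidation, ketone body metabolism and the wider set of PPARα targets were followed in mouse liver. The set had 38 members. The list was drawn up with earlier results of these data known. Its probes were picked by gene name, with no cut on a measured value, from those of a one-colour array. The array carried 27872 genes, counting each unnamed probe as a gene of its own. All 38 were found under their listed names on 51 probes, and 10 members had several probes. Every member was well above background on all 12 arrays and unsaturated, so all 38 entered the tests.

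PPARα, encoded by Ppara, is a nuclear receptor of hepatocytes that fatty acids activate and that binds DNA together with a retinoid X receptor. In fasting it is known to raise genes for fatty acid entry into mitochondria, for mitochondrial and peroxisomal oxidation, for omega-hydroxylation by Cyp4a enzymes and for the hormone Fgf21. Glucocorticoids also rise in fasting and act on the liver through the glucocorticoid receptor, which is a nuclear receptor too.

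Liver RNA came from male C57BL/6 mice aged 8 to 10 weeks, with 1 mouse per array and 3 mice per group. The groups were untreated wild-type, dexamethasone-treated wild-type, untreated HESKOL and dexamethasone-treated HESKOL mice. Every mouse, controls included, had been adrenalectomized, and treated mice received the synthetic glucocorticoid dexamethasone at 1 mg/kg by intraperitoneal injection 6 hours before the liver was taken. The labels describe no vehicle injection for untreated mice and do not spell out HESKOL, its allele or the cells it affects, while the study's title names Hes1 and liver glucocorticoid signaling. The comparisons ask how dexamethasone changed these genes in each genotype, and how the genotypes differed with and without it.

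Values below are levels on the log2 scale relative to the 75th percentile of the array, and changes are differences of such levels. Between 61.5% and 71.9% of probes were well above background on an array. The single Hes1 probe was lower in HESKOL liver, at -2.65 ± 0.38 (SD, n = 3) against -1.53 ± 0.34 untreated and -3.32 ± 0.46 against -2.22 ± 0.93 after treatment. Neither genotype difference passed across all genes in limma (Benjamini-Hochberg adjusted p = 1.00 and 0.249), although the groups did not overlap. The difference after treatment, -1.10, was -0.57 without wild-type dexamethasone replicate 1 and -0.40 with slide as a block. Of 10 known glucocorticoid-induced genes, 4 rose in wild-type and 7 in HESKOL liver with dexamethasone, and 7 and 9 rose without wild-type dexamethasone replicate 1. That array stood farthest from its group, with a root mean square deviation of 0.995 against 0.463 to 0.799 for the other arrays. Of the 10 genes, Fkbp5 was at -0.998 and Tsc22d3 at 2.40 on it, both below every untreated wild-type array. The remaining treated wild-type arrays gave 3.45 and 3.98 for Fkbp5 and 5.51 and 4.32 for Tsc22d3. The other 8 genes had all treated wild-type arrays above all untreated ones. The reason for the low values was not tested. Of 10 hepatocyte markers, 8 were on the array and all 8 were above background on every array. The arrays lay on 3 slides. All untreated wild-type arrays shared slide 1 with 1 untreated HESKOL array, replicate 1. The remaining 2 untreated HESKOL arrays shared slide 2 with replicates 1 and 2 of treated wild-type liver, and slide 3 carried the other treated arrays.

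Dexamethasone raised 7 of the 38 members in HESKOL liver and lowered none. These were the carnitine acyltransferases Cpt1a and Crat, the beta-oxidation genes Acadl and Hadhb, the thioesterase gene Acot1 and the omega-hydroxylases Cyp4a10 and Cyp4a14. In wild-type liver it raised none and lowered 1, Hacl1, a peroxisomal alpha-oxidation enzyme. Across the 18733 genes tested, 3.65% rose and 4.22% fell in HESKOL liver, against 0.16% and 0.032% in wild-type liver (limma, Benjamini-Hochberg adjusted p below 0.05). The wild-type share moved most with 1 array: without wild-type dexamethasone replicate 1 it was 2.52% up and 3.39% down, 1111 genes in place of 36. The HESKOL share was then 6.76% up and 8.14% down, and leaving out any single array gave 367 to 2803 HESKOL calls in place of 1474. The median change of the members was 0.62 in HESKOL liver, with 34 above 0. The median of all genes there was -0.0025, with 49.9% above 0. In wild-type liver the members' median was 0.12, with 25 above 0, against -0.02 for all genes, of which 47.9% were above 0.

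Counts by overlap of the arrays and by unadjusted p, taken from the same arrays, ran the same way. In HESKOL liver 17 members had all 3 treated arrays above all 3 untreated ones and 0 had them below, where 15.6% and 18.7% of all genes did. In wild-type liver 0 members lay wholly above and 1 wholly below, where 6.12% and 5.97% of all genes did. At an unadjusted p under 0.05, 19 members were higher and 0 lower with dexamethasone in HESKOL liver, where 11.2% of all genes were higher and 13.4% lower. In wild-type liver 0 members were higher and 2 lower, where 5.7% of all genes were higher and 6.07% lower.

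These counts depended on single arrays. Leaving out replicate 1, 2 or 3 of untreated HESKOL liver brought the HESKOL count of 7 to 3, 0 or 0. Leaving out replicate 1, 2 or 3 of treated HESKOL liver brought it to 2, 0 or 0. It ran from 5 to 9 when a wild-type array was left out. The wild-type count of 1 was 3 without wild-type dexamethasone replicate 1, which added Acot3 and Acot4, 1 without replicate 2 of that group and 0 without any other array. With slide as a fixed block no member passed in any comparison, and the members' median change was 0.76 in HESKOL and 0.50 in wild-type liver. No slide held treated and untreated livers of one genotype.

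**Figure D1:**
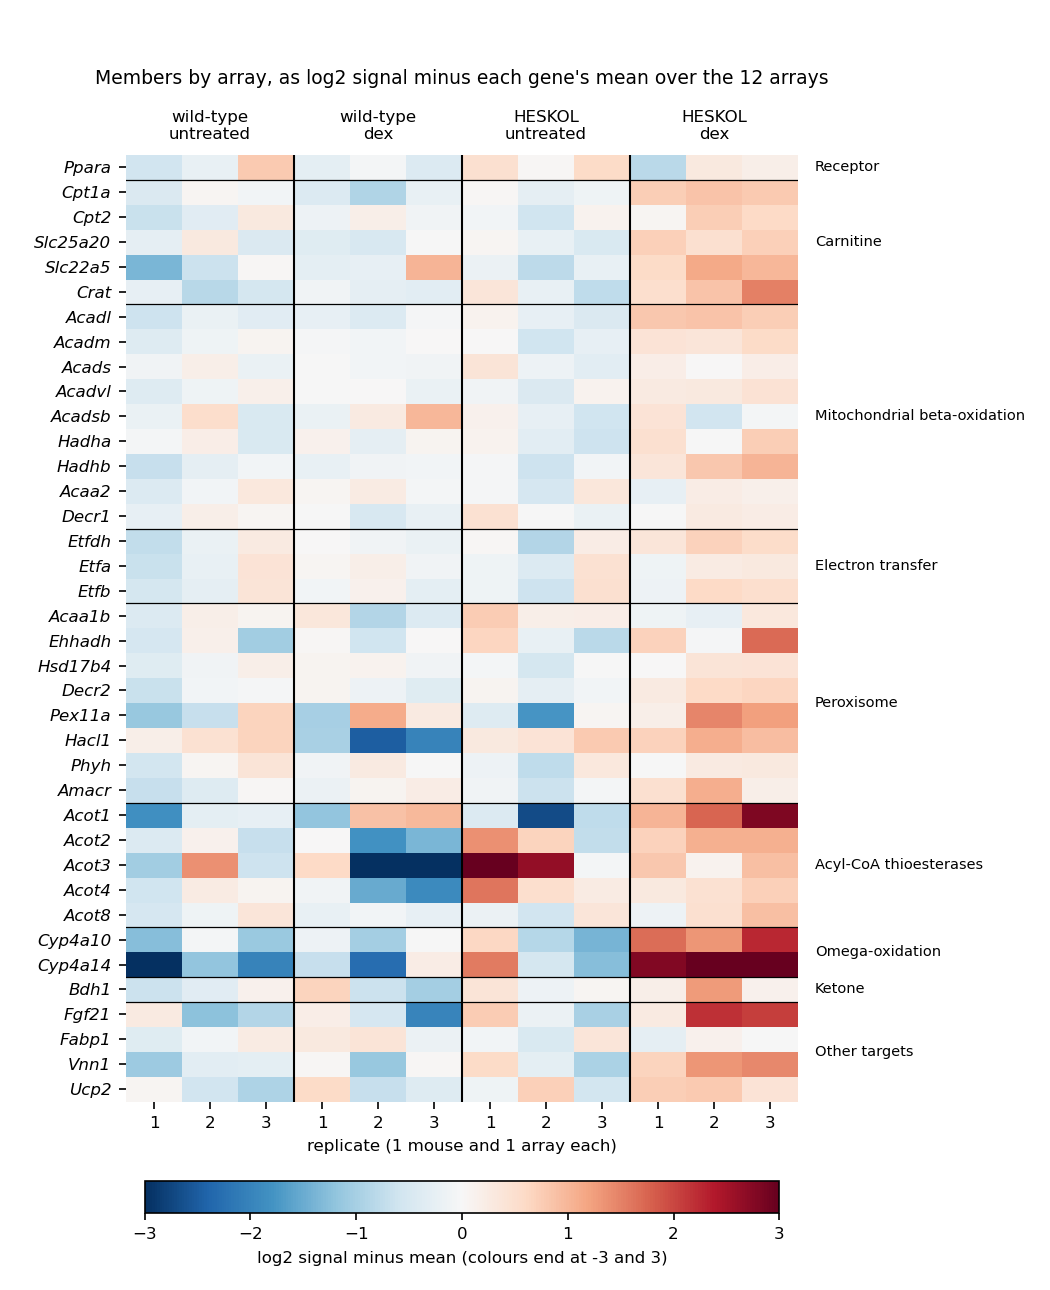
Heat map of all 38 members (rows, ordered by role) on the 12 arrays (columns, by group and replicate), coloured by log2 level minus the gene's mean over the 12 arrays. The 3 HESKOL dexamethasone columns are mostly above the mean, Hacl1 is low in wild-type dexamethasone liver alone, and Acot3 is low on wild-type dexamethasone replicates 2 and 3.

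Across the members, 13 had all 3 HESKOL dexamethasone arrays above the other 9 arrays. They were Cpt1a, Slc25a20, Crat, Acadl, Acadm, Acadvl, Hadhb, Etfdh, Decr2, Acot1, Cyp4a10, Cyp4a14 and Vnn1. Another 4 members were separated from untreated HESKOL liver only and 6 from treated wild-type liver only. Among all genes, treated HESKOL arrays lay wholly above untreated HESKOL ones for 15.6% and above treated wild-type ones for 10.5%. The share of all genes above all 9 other arrays was not counted, so the 13 is not shown to be particular to the members. The range over the 12 arrays was narrowest for Acads, at 0.70, and widest for Acot3, at 9.08.

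The receptor itself passed in no comparison. Ppara was at 3.43, 3.77 and 4.79 in untreated and 3.71, 3.93 and 3.60 in treated wild-type liver. In HESKOL liver it was at 4.47, 4.04 and 4.58 untreated and 3.20, 4.28 and 4.18 treated. All 4 groups overlapped, and the lowest value of all was HESKOL dexamethasone replicate 1. The change with dexamethasone was -0.25 (95% interval -1.08 to 0.57, adjusted p = 0.848) in wild-type and -0.48 (-1.30 to 0.35, adjusted p = 0.476) in HESKOL liver. Its probe lay at chr15:85883890-85883949 of the mm7 build on which the array was designed.

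The 5 carnitine genes carry fatty acids across membranes. Cpt1a, which makes acylcarnitines at the outer mitochondrial membrane and controls the rate of fatty acid entry, was at 4.78, 5.28 and 5.15 in untreated and 4.82, 4.31 and 4.99 in treated wild-type liver. The HESKOL values were 5.25, 4.94 and 5.08 untreated and 5.97, 6.09 and 6.00 treated (probe at chr19:3280180-3280239, mm7). The treated HESKOL arrays were the highest of the 12 and close to each other, and the other groups overlapped. Cpt1a rose 1.90-fold in HESKOL liver (log2 0.93, SE 0.22, adjusted p = 0.0321) and changed by -0.36 (SE 0.22, adjusted p = 0.570) in wild-type liver. A second Cpt1a probe gave 1.00 and -0.36. Left-out arrays moved the HESKOL change between 0.85 and 1.01 and its adjusted p between 0.020 and 0.12, and slide as a block gave 0.58 (adjusted p = 0.863).

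Crat, which transfers acetyl groups to carnitine, was at 1.56, 0.97 and 1.28 in untreated and 1.69, 1.54 and 1.49 in treated wild-type liver (chr2:30409475-30409534, mm7). HESKOL livers gave 2.15, 1.57 and 1.05 untreated and 2.31, 2.65 and 3.31 treated. The treated HESKOL arrays again lay above all others, but HESKOL untreated replicate 1 was close to the lowest of them. It rose by 1.17 (SE 0.32, adjusted p = 0.0498) in HESKOL liver, just under the threshold. The call was kept in 5 of 23 alternative settings. With slide as a block the change was 1.58 (adjusted p = 0.738), and 1.19 in wild-type liver.

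The other 3 carnitine genes did not pass, though all 5 were higher at an unadjusted p under 0.05 in HESKOL liver, as were 11.2% of all genes. Cpt2, which turns acylcarnitines back to acyl-CoA inside the mitochondrion, was at 5.39, 5.73 and 6.36 in untreated and 5.91, 6.25 and 5.97 in treated wild-type liver. Untreated HESKOL livers were at 5.98, 5.47 and 6.17 and treated ones at 6.14, 6.80 and 6.68. These groups overlapped, and the change in HESKOL liver was 0.67 (adjusted p = 0.192). The translocase gene Slc25a20 differed by 0.85 (adjusted p = 0.0585) and the carnitine importer Slc22a5 by 1.29 (adjusted p = 0.0833), each with treated HESKOL arrays above untreated ones. With slide as a block these were 0.56 and 0.12.

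Of 9 mitochondrial beta-oxidation genes, 2 rose in HESKOL liver, none fell and all 9 changes were above 0. In wild-type liver none passed and the changes ran from -0.23 to 0.41. Acadl, the long-chain acyl-CoA dehydrogenase, was at 2.85, 3.26 and 3.12 in untreated and 3.22, 3.06 and 3.44 in treated wild-type liver. Its level in HESKOL liver was 3.56, 3.22 and 3.04 untreated and 4.28, 4.33 and 4.20 treated (chr1:67070807-67070866, mm7). The treated HESKOL livers stood apart from the 9 others, which overlapped.

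Acadl rose 2.0-fold in HESKOL liver (log2 1.00, SE 0.21, adjusted p = 0.0181), with a change of 0.16 (SE 0.21, adjusted p = 0.817) in wild-type liver. Its adjusted p ran from 0.011 to 0.074 as arrays were left out, and slide as a block gave 0.84 (adjusted p = 0.770).

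Hadhb, the thiolase subunit of the mitochondrial trifunctional protein, was at 4.46, 4.88 and 5.05 in untreated and 4.93, 5.03 and 5.07 in treated wild-type liver. In HESKOL liver it was at 5.11, 4.53 and 5.07 untreated and 5.51, 5.95 and 6.16 treated (chr5:29217166-29217225, mm7). Every treated HESKOL array was higher than any other array. It rose by 0.97 (SE 0.25, adjusted p = 0.0400) in HESKOL liver and changed by 0.21 (adjusted p = 0.796) in wild-type liver. Left-out arrays gave an adjusted p of 0.028 to 0.15 and slide as a block a change of 0.98 (adjusted p = 0.809).

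Hadha encodes the partner subunit, with hydratase and dehydrogenase activity, and was at 2.18, 2.45 and 1.78 in untreated and 2.38, 1.97 and 2.33 in treated wild-type liver. The HESKOL values were 2.36, 1.93 and 1.62 untreated and 2.72, 2.24 and 2.99 treated. The groups overlapped, and the change in HESKOL liver was 0.68 (adjusted p = 0.161). Its other 2 probes gave 1.47 and 1.01 in HESKOL liver but -1.28 and -1.15 in wild-type liver, where the chosen probe gave 0.09, so its probes disagree. One of those 2 was above background on 3 arrays and the other on 11.

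Acadm, the medium-chain acyl-CoA dehydrogenase, was at 5.93, 6.20 and 6.40 in untreated and 6.29, 6.24 and 6.33 in treated wild-type liver. HESKOL livers gave 6.33, 5.74 and 6.09 untreated and 6.73, 6.68 and 6.91 treated. Treated HESKOL livers lay above all others, yet the change of 0.72 missed the threshold (adjusted p = 0.0592). The very-long-chain dehydrogenase Acadvl differed by 0.48 (adjusted p = 0.186). Acads and Acadsb, which act on short and branched chains, differed by 0.16 and 0.15, the thiolase Acaa2 by 0.11 and the dienoyl-CoA reductase Decr1 by 0.08, with overlapping groups.

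The 3 genes that pass electrons from these dehydrogenases to the respiratory chain did not pass in either genotype. Etfdh, the membrane oxidoreductase, was at 5.09, 5.63 and 6.10 in untreated and 5.83, 5.71 and 5.62 in treated wild-type liver. Untreated HESKOL livers were at 5.85, 4.95 and 6.04 and treated ones at 6.18, 6.52 and 6.37. Treated HESKOL arrays were the highest, with a change of 0.74 (adjusted p = 0.177). A second Etfdh probe gave 0.58, but its levels did not follow those of the first across the arrays (Pearson r = 0.04). The flavoprotein subunits Etfa and Etfb differed by 0.16 and 0.41.

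**Figure D2:**
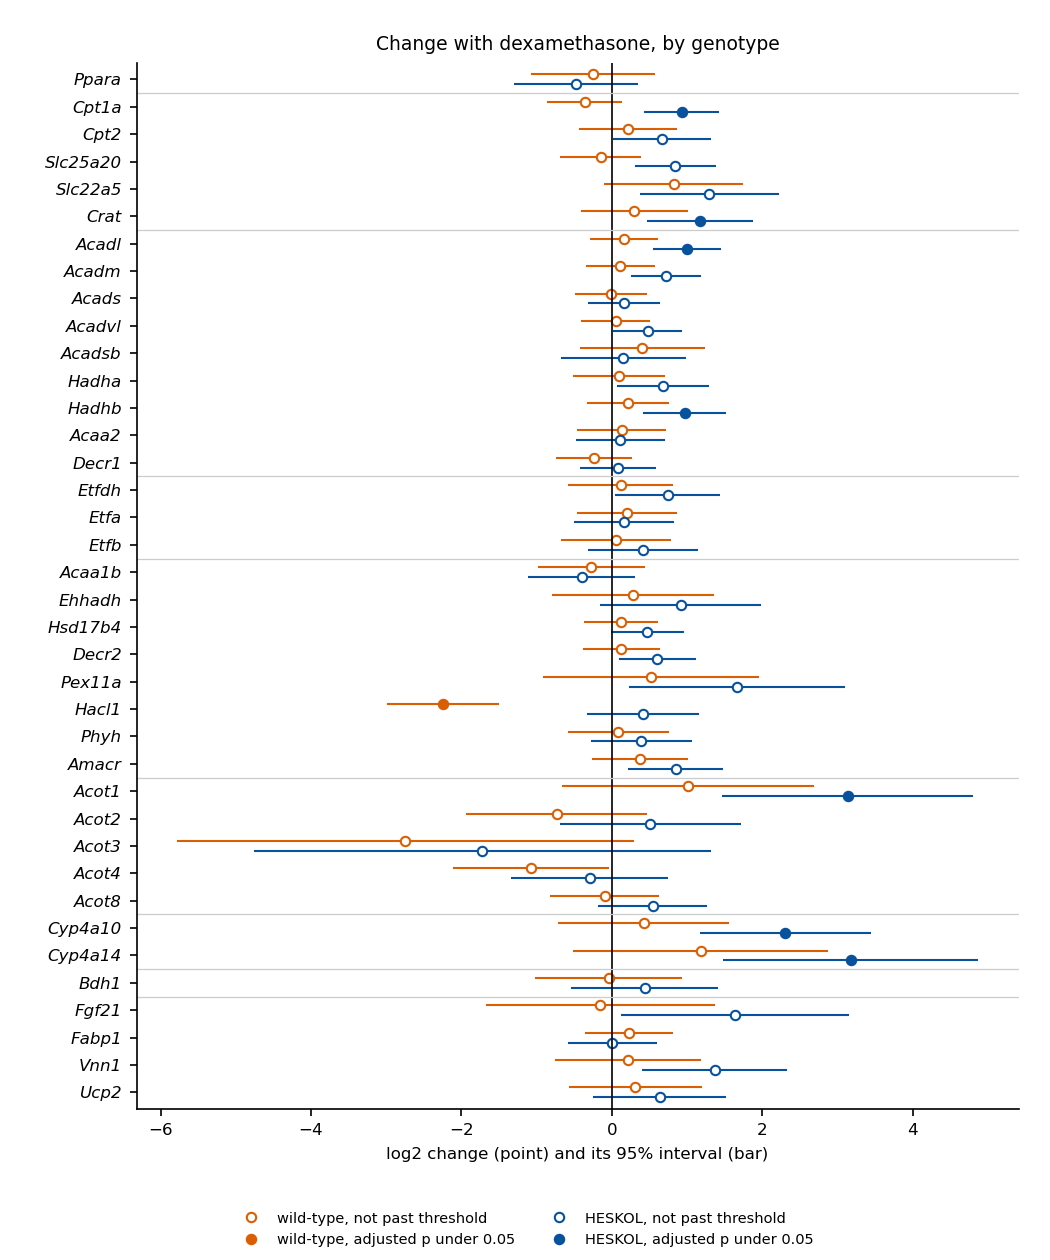
Log2 change with dexamethasone (horizontal axis) of each of the 38 members, with its 95% interval, in wild-type (orange) and HESKOL liver (blue). Filled points passed the threshold, 7 in HESKOL liver on the right of 0 and Hacl1 in wild-type liver on the left.

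Of 8 peroxisomal genes none passed with dexamethasone in HESKOL liver, and Hacl1 fell in wild-type liver. Hacl1 encodes the lyase that shortens 2-hydroxy fatty acids by 1 carbon. It was at 0.01, 0.28 and 0.49 in untreated wild-type liver and at -1.15, -2.65 and -2.17 in treated wild-type liver. Its level in HESKOL liver was 0.12, 0.23 and 0.61 untreated and 0.53, 0.92 and 0.75 treated (chr14:29037494-29037553, mm7). The 3 treated wild-type livers were below the 9 others, and untreated livers of both genotypes overlapped.

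Hacl1 fell 4.76-fold with dexamethasone in wild-type liver (log2 -2.25, SE 0.34, adjusted p = 0.0277) and changed by 0.41 (95% interval -0.34 to 1.15, adjusted p = 0.499) in HESKOL liver. Slide as a block gave -2.46 (adjusted p = 1.00). Left-out arrays moved the wild-type change between -2.67 and -1.92, with adjusted p from 0.0011 without wild-type dexamethasone replicate 1 up to 0.14. The difference between the changes was 2.66 (SE 0.48), with an adjusted p of 0.183 in limma, and without that replicate it was 3.08 (adjusted p = 0.0159).

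Ehhadh, the peroxisomal bifunctional enzyme and a classical PPARα target, was at 4.25, 4.92 and 3.72 in untreated and 4.79, 4.18 and 4.77 in treated wild-type liver. In HESKOL liver it was at 5.41, 4.53 and 3.96 untreated and 5.45, 4.73 and 6.47 treated. The HESKOL groups were widely spread and overlapped, and the change of 0.92 did not pass (adjusted p = 0.274). Pex11a, which acts in peroxisome division, differed by 1.67 (adjusted p = 0.143) and the racemase gene Amacr by 0.85 (adjusted p = 0.0966). The reductase Decr2, the bifunctional enzyme Hsd17b4 and the phytanoyl-CoA hydroxylase Phyh differed by 0.61, 0.47 and 0.39. The thiolase Acaa1b, whose probe may also read its close paralog Acaa1a, differed by -0.40.

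Acyl-CoA thioesterases release free fatty acids from acyl-CoA, in the cytosol for Acot1, in mitochondria for Acot2 and in peroxisomes for Acot3, Acot4 and Acot8. Acot1 to Acot4 are neighbouring paralogs on chromosome 12, with probes between 81989158 and 82054734 (mm7), and binding of related transcripts to a probe was not tested. Acot1 was at 1.70, 3.26 and 3.29 in untreated and 2.35, 4.42 and 4.51 in treated wild-type liver. The HESKOL values were 3.13, 0.87 and 2.79 untreated and 4.55, 5.29 and 6.34 treated (chr12:82013539-82013598, mm7). Treated HESKOL livers were the highest, although wild-type dexamethasone replicate 3 came close to the lowest of them.

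Acot1 rose 8.78-fold in HESKOL liver (log2 3.13, SE 0.76, adjusted p = 0.0321) and changed by 1.01 (SE 0.76, adjusted p = 0.651) in wild-type liver. Left-out arrays gave an adjusted p of 0.013 to 0.12, and slide as a block gave 2.45 (adjusted p = 0.837) in HESKOL and 1.95 in wild-type liver.

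No other thioesterase passed with all arrays in the fit, and the values of Acot2, Acot3 and Acot4 are given because they were singled out after being seen. Acot3 was at -2.20, 0.21 and -1.79 in untreated and -0.57, -5.62 and -5.83 in treated wild-type liver, so replicate 1 of the treated group did not share the low values of the others. HESKOL livers gave 3.25, 1.47 and -1.21 untreated and -0.34, -1.05 and -0.27 treated. The wild-type change was -2.75 (SE 1.38, adjusted p = 0.479), and -4.47 (adjusted p = 0.0418) without wild-type dexamethasone replicate 1.

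Acot4 followed the same order in wild-type liver, at 0.27, 1.10 and 0.93 untreated and 0.75, -0.65 and -1.04 treated. Its change there was -1.08 (adjusted p = 0.407), and -1.61 (adjusted p = 0.0447) without that replicate. Acot2 was at -2.92, -2.37 and -3.18 untreated and -2.48, -4.32 and -3.86 treated in wild-type liver. Replicate 1 was again the highest of the treated arrays, and the change of -0.73 did not pass with it (adjusted p = 0.649) or without it (-1.27, adjusted p = 0.182). With slide as a block the wild-type changes of Acot2, Acot3 and Acot4 turned to 0.84, 1.28 and 0.52, and the HESKOL changes of Acot3 and Acot4 to 2.05 and 1.20. In HESKOL liver with no block Acot3 differed by -1.73 and Acot2, Acot4 and Acot8 differed by 0.51, -0.30 and 0.54, and none passed.

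**Figure D3:**
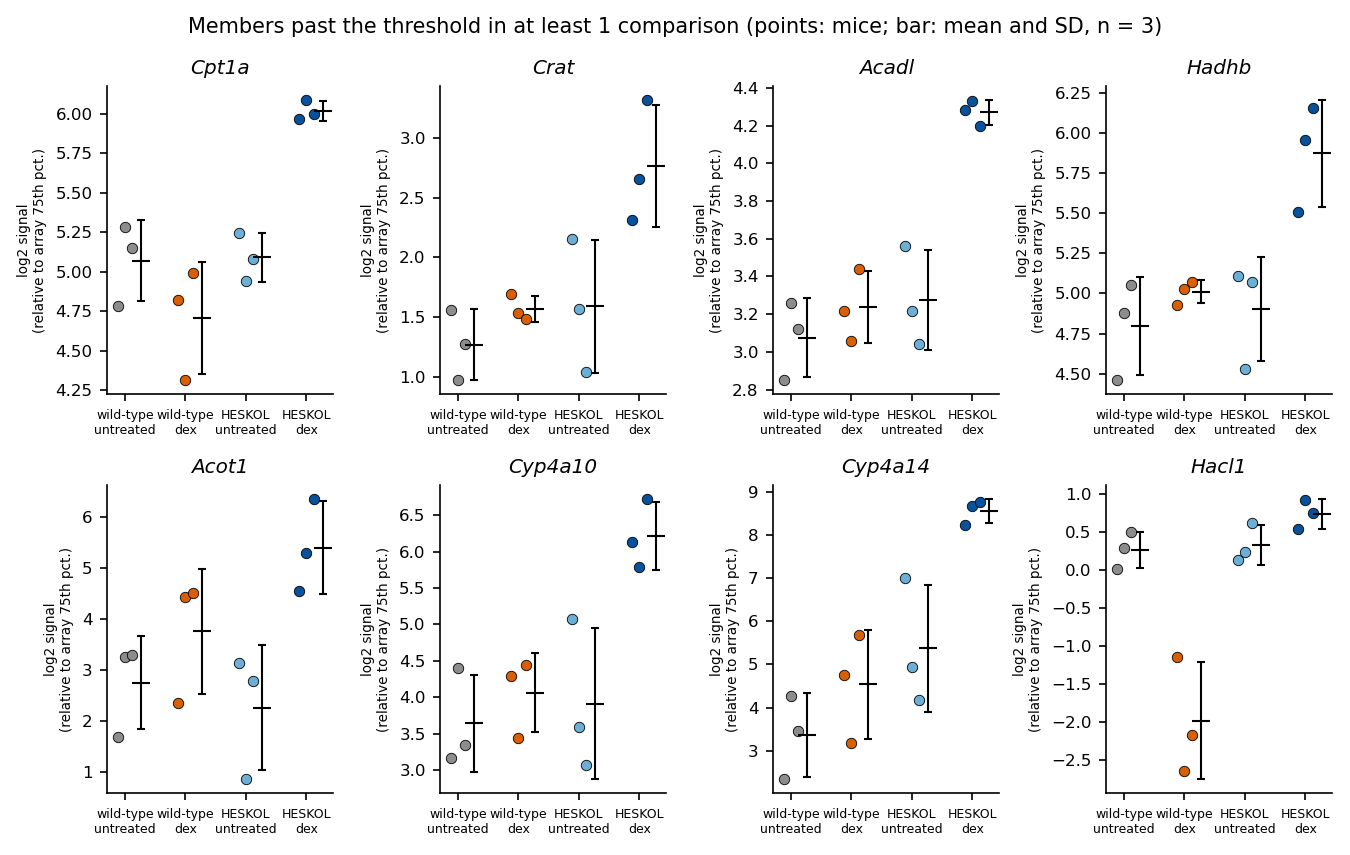
Log2 level (vertical axis, relative to the 75th percentile of the array) of the 8 members that passed in at least 1 comparison, with 1 point per mouse and the mean and SD beside each group of 3. In 7 panels the HESKOL dexamethasone points are the highest, and in the Hacl1 panel the wild-type dexamethasone points are the lowest.

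The omega-hydroxylases Cyp4a10 and Cyp4a14 oxidise the methyl end of fatty acids and are among the strongest known PPARα targets in mouse liver. Both rose in HESKOL liver. Cyp4a10 had 3 probes, and the 2 shown here as designed lie next to each other in the gene yet differ in the size of the response. The first, which stood for the gene as the brightest, lies at chr4:114901988-114902047 and the second spans chr4:114901279-114901760 (mm7).
Cyp4a10 probe A_52_P340136: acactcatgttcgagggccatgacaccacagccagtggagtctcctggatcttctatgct
Cyp4a10 probe A_52_P6588: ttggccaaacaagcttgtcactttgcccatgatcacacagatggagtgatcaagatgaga

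On the first of these probes Cyp4a10 was at 3.17, 4.40 and 3.35 in untreated and 4.30, 3.44 and 4.45 in treated wild-type liver. Untreated HESKOL livers were at 5.07, 3.60 and 3.07 and treated ones at 6.13, 5.79 and 6.72. Treated HESKOL arrays lay above all others, and HESKOL untreated replicate 1 was the next highest. Cyp4a10 rose 4.93-fold in HESKOL liver (log2 2.30, SE 0.52, adjusted p = 0.0239) and changed by 0.42 (SE 0.52, adjusted p = 0.808) in wild-type liver. The second probe gave 3.09 and 1.54, and the third gave 2.86 and 1.55. Left-out arrays gave an adjusted p of 0.017 to 0.094, and slide as a block gave 2.30 (adjusted p = 0.700) in HESKOL and 1.96 in wild-type liver.

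Cyp4a14 was at 2.34, 4.28 and 3.45 in untreated and 4.75, 3.17 and 5.68 in treated wild-type liver (chr4:114862748-114862807, mm7). Its level in HESKOL liver was 7.0, 4.93 and 4.18 untreated and 8.22, 8.66 and 8.75 treated. The treated HESKOL livers were the highest and closest together, and HESKOL untreated replicate 1 lay above every wild-type liver. Cyp4a14 rose 9.04-fold in HESKOL liver (log2 3.18, SE 0.77, adjusted p = 0.0324), with a change of 1.18 (adjusted p = 0.591) in wild-type liver. Left-out arrays gave an adjusted p of 0.024 to 0.12, and slide as a block gave 2.27 (adjusted p = 0.774) in HESKOL and 3.05 in wild-type liver. The Cyp4a10 and Cyp4a14 probes may also read each other's transcripts, which was not tested.

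Bdh1, which interconverts the ketone bodies acetoacetate and beta-hydroxybutyrate, was the only ketone gene among the members. It was at 5.24, 5.56 and 6.01 in untreated and 6.56, 5.25 and 4.86 in treated wild-type liver. In HESKOL liver it was at 6.27, 5.73 and 5.94 untreated and 6.07, 7.17 and 6.02 treated. The groups overlapped, and the changes of -0.04 in wild-type and 0.44 in HESKOL liver did not pass (adjusted p = 0.982 and 0.586).

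Fgf21, the liver hormone of fasting, was at -1.87, -3.37 and -3.03 in untreated and -1.94, -2.66 and -4.13 in treated wild-type liver (chr7:41790029-41790088, mm7). The HESKOL values were -1.38, -2.31 and -3.12 untreated and -1.88, 0.05 and -0.08 treated. Treated HESKOL replicates 2 and 3 were high and replicate 1 lay within the range of the other groups. The change in HESKOL liver was 1.64 (95% interval 0.12 to 3.16, adjusted p = 0.172), and a second probe gave 1.50. In wild-type liver it was -0.15 (-1.67 to 1.37, adjusted p = 0.956). With slide as a block these changes were 3.91 and 1.79.

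Vnn1, a pantetheinase, was at 1.30, 2.06 and 2.09 in untreated and 2.43, 1.25 and 2.40 in treated wild-type liver. HESKOL livers gave 2.96, 2.09 and 1.42 untreated and 3.06, 3.69 and 3.81 treated. The treated HESKOL arrays were the highest by a narrow margin over HESKOL untreated replicate 1, and the change of 1.37 did not pass (adjusted p = 0.0818). Ucp2, a mitochondrial carrier, was at -0.09, -0.73 and -1.09 in untreated and 0.42, -0.85 and -0.54 in treated wild-type liver. Untreated HESKOL livers were at -0.29, 0.55 and -0.71 and treated ones at 0.58, 0.63 and 0.24, with overlap and a change of 0.63 (adjusted p = 0.362).

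Fabp1, the abundant fatty acid binding protein of hepatocytes, was at 7.78, 8.05 and 8.39 in untreated and 8.43, 8.51 and 7.95 in treated wild-type liver. Its level in HESKOL liver was 8.06, 7.67 and 8.50 untreated and 7.86, 8.26 and 8.13 treated. All groups overlapped, and the 95% intervals of the change ran from -0.36 to 0.82 in wild-type and from -0.58 to 0.60 in HESKOL liver.

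**Figure D4:**
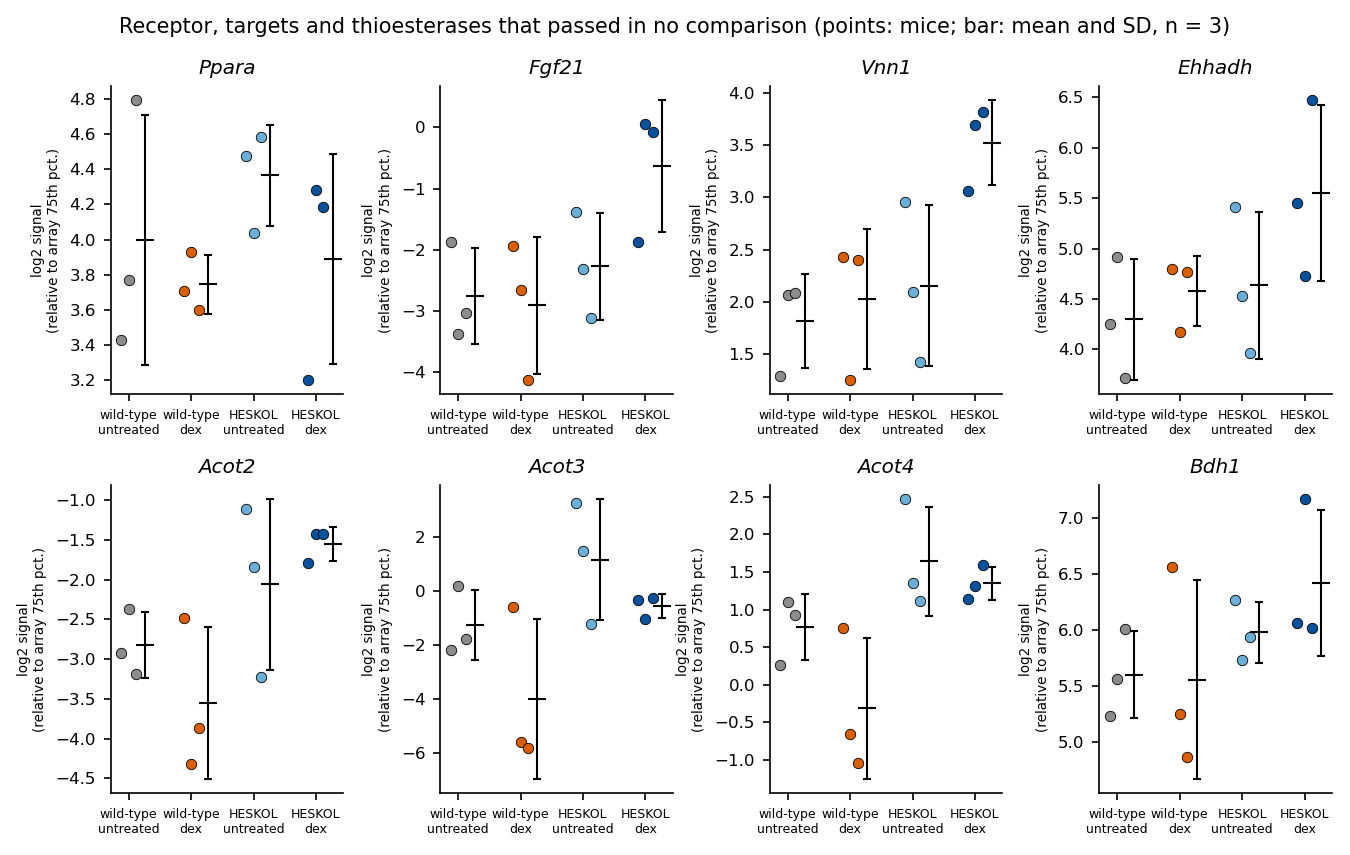
Log2 level (vertical axis, relative to the 75th percentile of the array) of Ppara and 7 target or thioesterase genes that passed in no comparison, with 1 point per mouse and the mean and SD beside each group of 3. Fgf21 is high on HESKOL dexamethasone replicates 2 and 3, and Acot3 is low on wild-type dexamethasone replicates 2 and 3.

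PPARα with its partner binds a direct repeat of the motif AGGTCA with 1 base between, so the members' promoters were searched for it. RefSeq windows from 250 bases before to 50 after the start were given for 30 members in 32 windows (GRCm38.p6). Crat, Acaa2, Decr1, Hsd17b4, Amacr, Cyp4a10, Cyp4a14 and Vnn1 had none. On both strands the exact repeat AGGTCANAGGTCA occurred in 0.0396% of 32851 promoters and in 0 of the members' windows. With any base at position 4 of each unit, as AGGNCANAGGNCA, a set that includes the exact repeat, it occurred in 0.38% of all promoters and in 1 member, Fabp1. The glucocorticoid receptor motif, AGAACA and TGTTC with 3 bases between, occurred in 0.0487% of promoters and in 0 of the members' windows.

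The single unit AGGTCA, which the exact repeat also contains, was found in 16.3% of all promoters. It was found in 8 of 32 member windows (25%), in Acadm, Acadvl, Acot3, Acot4, Cpt1a, Fabp1 and Phyh. Of these 7 genes Cpt1a rose in HESKOL liver and the others did not pass in either dexamethasone comparison. The Fabp1 promoter is shown because it alone held the repeat, at 67 to 55 bases before the start, although Fabp1 passed in no comparison. It is chr6:71199629-71199878 on the plus strand, from RefSeq on GRCm38.p6, with the match, which reads AGGCCATAGGTCA on the minus strand, in capitals.
Fabp1 promoter: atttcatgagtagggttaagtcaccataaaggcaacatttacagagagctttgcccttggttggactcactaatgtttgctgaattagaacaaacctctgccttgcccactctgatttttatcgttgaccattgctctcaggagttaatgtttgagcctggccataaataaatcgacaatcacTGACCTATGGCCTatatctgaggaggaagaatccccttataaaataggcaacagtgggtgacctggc

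Without treatment no member differed between HESKOL and wild-type liver, and 0% of genes passed (limma, adjusted p). At an unadjusted p under 0.05 it was 1 member, Cyp4a14, which was higher, as were 1.08% of all genes. The members' median difference was 0.08, with 27 above 0, against 0.04 for all genes, of which 58.3% were above 0. All 3 HESKOL arrays lay above the wild-type arrays for 1 member, Acot4, and below for 0, where 4.15% and 2.2% of all genes did. Cyp4a14 differed by 2.01 (SE 0.77, adjusted p = 1.00), and its groups overlapped.

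After dexamethasone 4 members were higher in HESKOL than in wild-type liver and none was lower, where 0.694% of genes were higher and 0.448% lower, or 1.53% and 0.893% without wild-type dexamethasone replicate 1. Hacl1 was 6.60-fold higher (log2 2.72, SE 0.34, adjusted p = 0.00582), the gap being set by the low treated wild-type arrays given above. Cyp4a14 was 16.1-fold higher (log2 4.01, SE 0.77, adjusted p = 0.0396). Cpt1a was 2.48-fold higher (log2 1.31, SE 0.22, adjusted p = 0.0271) and Acadl 2.05-fold higher (log2 1.03, SE 0.21, adjusted p = 0.0449). For 19 members the treated HESKOL arrays lay wholly above the treated wild-type arrays and for 0 below, where 10.5% and 7.68% of all genes did. The median difference was 0.69, with 35 above 0, against 0.04 for all genes, of which 53.4% were above 0.

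Within slide 3, which held all 3 treated HESKOL arrays and 1 treated wild-type array, the differences were 2.90 for Hacl1, 2.86 for Cyp4a14, 1.03 for Cpt1a and 0.83 for Acadl (adjusted p = 0.123, 0.229, 0.306 and 0.341 with slide as a block). The count of 4 was 7 without wild-type dexamethasone replicate 1, with Acot2, Acot3 and Acot4 added at differences of 2.54, 5.17 and 2.20. It was 1 without wild-type dexamethasone replicate 2 and 1 without any of the HESKOL dexamethasone replicates. It was 2 without wild-type untreated replicates 2 or 3 or HESKOL untreated replicate 2, which enter the shared estimate of the spread alone. Among members that did not pass, Cyp4a10 differed by 2.15 (adjusted p = 0.0748), and by 3.01 and 3.28 on its other 2 probes. Those probes also differed between untreated genotypes by 1.69 and 1.74, against 0.27 on the chosen one. Fgf21 differed by 2.28 (adjusted p = 0.143) and Vnn1 by 1.50 (adjusted p = 0.133). One of the 3 Ucp2 probes, above background on 5 arrays, gave -0.12 where the chosen probe gave 0.81.

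**Figure D5:**
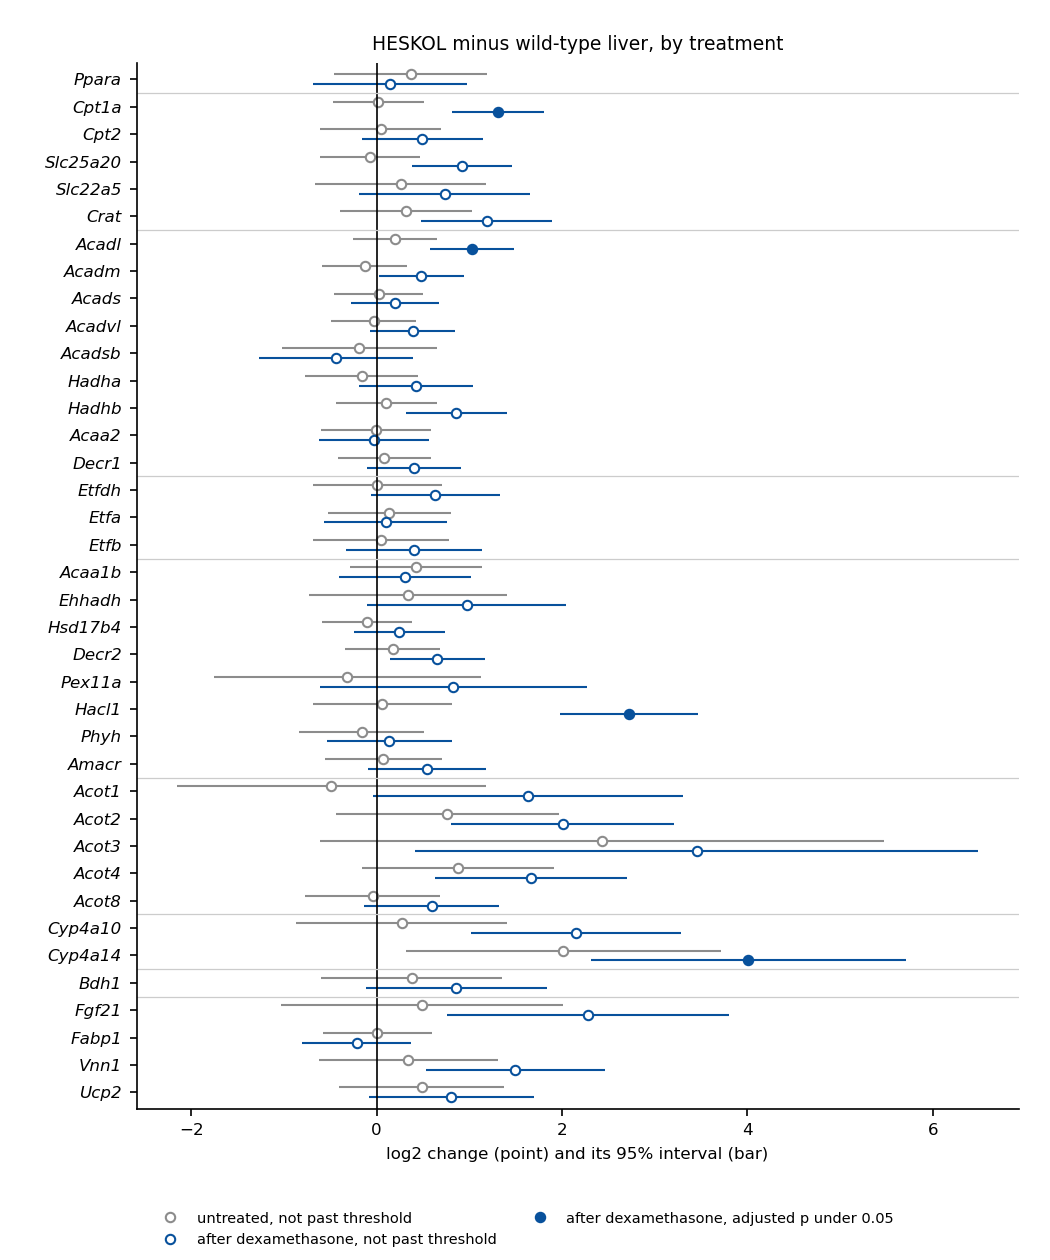
Log2 difference of HESKOL minus wild-type liver (horizontal axis) of each of the 38 members with its 95% interval, untreated (grey) and after dexamethasone (blue). The filled points, Cpt1a, Acadl, Hacl1 and Cyp4a14, passed after dexamethasone, and no untreated difference passed.

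No member passed in the test of whether the dexamethasone changes differed between the genotypes, where 0.016% of genes, 3 in all, did (limma, adjusted p). At an unadjusted p under 0.05 it was 5 members, Cpt1a, Slc25a20, Acadl, Hacl1 and Cyp4a10, each with the larger value in HESKOL liver, as had 3.23% of all genes. Cpt1a differed by 1.29 (SE 0.32, adjusted p = 0.377), Cyp4a10 by 1.88 (SE 0.73, adjusted p = 0.664) and Cyp4a14 by 2.0 (95% interval -0.40 to 4.40, adjusted p = 0.803). The median difference was 0.60, with 32 above 0, against 0.00077 for all genes, of which 50.1% were above 0. With slide as a block the members' median difference was 0.37 and the difference for Cpt1a was 0.85. The median of Cyp4a10 and Cyp4a14 was then -0.22, where it was 1.94 without the block. Hacl1 passed once replicate 1 of treated wild-type liver was left out. This test and the genotype comparisons use the arrays of the dexamethasone comparisons, so their values are not independent of them.

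Some arrays held the highest or lowest value for many members at once. HESKOL untreated replicate 1 was the highest of the 6 untreated arrays for 16 members, among them Crat, Acadl, Ehhadh, Cyp4a10, Cyp4a14, Fgf21 and Vnn1. Wild-type untreated replicate 1 was the lowest of these 6 for 17 members. The brightest array of a group held the lowest value of that group for 29 members in untreated wild-type, 16 in treated wild-type, 21 in untreated HESKOL and 25 in treated HESKOL liver. How often all genes followed these patterns was not counted, so they are not shown to be particular to the members. The part of array brightness in the changes was not tested.

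Ppara was most like Etfa, Acaa2, Etfb, Acot8 and Fabp1 over the 12 arrays, with Pearson r of 0.66, 0.64, 0.63, 0.57 and 0.52. Fgf21 was most like Crat (0.88), Acot2 (0.74), Decr2 (0.71), Vnn1 (0.70) and Bdh1 (0.70). These describe 12 arrays that share group, slide and scaling. None of the 7 members that rose in HESKOL liver was among the 5 most like Ppara, and Crat alone was among the 5 most like Fgf21.

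In a wider list of fatty acid and ketone genes that were not members, 64 of 68 were tested, and with dexamethasone 5 rose and 2 fell in HESKOL liver and none passed in wild-type liver. At an unadjusted p under 0.05 it was 15 higher and 4 lower in HESKOL liver, beside 11.2% and 13.4% of all genes, and 2 higher in wild-type liver, beside 5.7%. Those that rose were Pdk4, a kinase that turns off pyruvate dehydrogenase (2.46, adjusted p = 0.024), the peroxisomal oxidase Acox2 (1.53, adjusted p = 0.034), the muscle-type carnitine palmitoyltransferase Cpt1b (1.33, adjusted p = 0.018), the thioesterase Acot12 (1.21, adjusted p = 0.025) and the isomerase Ech1 (0.90, adjusted p = 0.032). The acyl-CoA synthetase Acsl3 (-2.25, adjusted p = 0.013) and the oxidase Acox3 (-0.78, adjusted p = 0.046) fell, the latter lying outside the naming rule. The median was 0.16 in HESKOL and -0.06 in wild-type liver. Without wild-type dexamethasone replicate 1, Acsl3 also fell in wild-type liver (-1.47, adjusted p = 0.00697).

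Among 19 tested receptors, partners and coregulators, 2 rose in HESKOL liver and none passed in wild-type liver. At an unadjusted p under 0.05 it was 6 and 2, each upward, beside 11.2% and 5.7% of all genes. Ppargc1a, a coactivator that works with PPARα and the glucocorticoid receptor, was at -1.19, -0.43 and -0.58 in untreated and -0.34, -0.13 and 0.57 in treated wild-type liver. In HESKOL liver it was at -0.66, -0.63 and 0.16 untreated and 2.87, 3.41 and 2.78 treated. The treated HESKOL arrays lay far above all others. The change was 3.39 (SE 0.33, adjusted p = 0.001) in HESKOL and 0.77 (SE 0.33, adjusted p = 0.401) in wild-type liver.

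After dexamethasone Ppargc1a was higher in HESKOL than in wild-type liver by 2.98 (SE 0.33, adjusted p = 0.003), and the difference between the changes was 2.62 (SE 0.47, adjusted p = 0.183). Lpin1, which also coactivates PPARα, rose by 4.69 (SE 0.66, adjusted p = 0.004) in HESKOL liver and changed by 2.31 (SE 0.66, adjusted p = 0.219) in wild-type liver. With replicate 1 of treated wild-type liver left out, 5 regulators passed in HESKOL liver and 4 in wild-type liver, where Lpin1 (2.91, adjusted p = 0.0318), Med1 (0.76) and Hnf4a (0.87) rose and Pparg fell (-1.50). Hnf4a and Pparg lie outside the naming rule and were added after their values were seen. The receptor partner Rxrb, Ppargc1b, Klf15 and Med1 changed by 0.73, 1.38, 1.11 and 0.77 in HESKOL liver and did not pass.

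Of 8 genes of fatty acid supply, all tested, 1 rose and 2 fell in HESKOL liver, beside 3.65% and 4.22% of all genes. The triglyceride lipase gene Pnpla2 rose by 2.25 (SE 0.37, adjusted p = 0.008), its inhibitor G0s2 fell by 2.94 (SE 0.78, adjusted p = 0.043) and the lipoprotein lipase gene Lpl fell by 1.85 (SE 0.48, adjusted p = 0.040). In wild-type liver none passed, and G0s2 changed by -2.63 (SE 0.78, adjusted p = 0.221). Lipc, Ces1f and Lipe changed by -0.64, -0.76 and -0.59 in HESKOL liver and did not pass.

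Some markers of other cells also changed with dexamethasone, while no neutrophil, stellate cell, bile duct, red cell or muscle marker passed in any comparison. In whole liver fewer cells of a type and less RNA per cell cannot be told apart. The summed linear level of 10 adipocyte markers, relative to the 75th percentile of the array, was 1.08 to 2.40 in untreated and 6.75 to 14.9 in treated wild-type liver. It was 1.14 to 3.86 in untreated and 20.8 to 67.6 in treated HESKOL liver. The defining markers Lep and Ucp1 were not above background on any array and Adipoq was on 3. Of 4 tested markers 3 rose in HESKOL liver, where 3.65% of all genes rose. They were Plin4, Cidec and Cidea, which belong to lipid droplets. Without Cidec the sum was 11.4 to 24.3 in treated HESKOL liver against 0.911 to 3.31 untreated. Plin4 was then the brightest tested marker, at a mean log2 level of 3.64 in treated HESKOL liver against 0.21 for Cfd and -2.30 for Cidea. Cfd changed by 1.36 there and did not pass in limma (adjusted p = 0.635).

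The sum of 7 measured neutrophil markers was 15.0 to 340 in untreated and 18.6 to 166 in treated wild-type liver. In HESKOL liver it was 9.32 to 261 untreated and 2.28 to 36.9 treated. The spread of this sum within a group was wide. The 13 Kupffer cell markers summed to 182 to 359, 141 to 305, 255 to 411 and 109 to 245 in the groups in the same order. With dexamethasone in HESKOL liver 1 Kupffer marker rose and 2 fell. Of 10 endothelial markers 1 rose and 1 fell. Of 13 lymphocyte markers 1 fell and 10 had treated arrays wholly below untreated ones. Of all genes 3.65% rose and 4.22% fell in that comparison, and 18.7% had treated arrays wholly below untreated ones. All 13 lymphocyte changes were below 0 in both genotypes, at a median of -0.70 in wild-type and -1.07 in HESKOL liver. In wild-type liver none passed, and 47.9% of all genes were above 0. Without wild-type dexamethasone replicate 1, 4 fell there, beside 3.39% of all genes. With slide as a block the lymphocyte medians were -0.04 in wild-type and 0.45 in HESKOL liver. The 8 hepatocyte markers summed to between 1477 and 2861 over all arrays, with 1 up and 1 down in HESKOL liver. The part of these markers in the members' changes was not tested.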

How the data were processed

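Per the labels' protocols, 500 ng of total RNA was labelled with Cy3. Per the file headers, the authors extracted one intensity per spot using version 9.5.3.1 of Agilent's Feature Extraction software, listed as 9.5 in the submitters' notes, and the array was designed on mm7. The deposited processed signal is a linear, background-subtracted intensity, and each column of the deposited series table equalled it (ratio 1). No further normalization is described in the sources used here.

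Here log2 processed signals were scaled by subtracting the 75th percentile of each array's non-control spots. Outlier spots were left out and spots of a probe averaged. The probe with the highest mean stood for its gene. Testing required a signal well above background on every array of some group, which left 18733 genes. Group means of all 12 arrays were fitted with limma 3.58.1 (lmFit, eBayes; R 4.3.3; 8 residual and 3.12 prior degrees of freedom), with 5 contrasts and Benjamini-Hochberg adjustment over all genes at 0.05. The procedure was tested on simulated data with independent noise per gene and array. These held no slide effect and no outlying array, so they cannot show how slides or single arrays affect the counts. The number of arrays limits the precision.

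The members, lists and naming rule were chosen with earlier results of these data known. Values per mouse are given for members that passed and for chosen members of each role, and of non-member lists up to 6 genes with the smallest adjusted p in HESKOL liver. Alternatives were quantile, median or no scaling, normexp with an offset of 50, no filter, the mean of probes, an intensity trend, a block for slide or for replicate number, the compared groups alone and each array left out. Exon and UTR annotation of the probes was not used here.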

Additional observations from a re-analysis of the deposited data

How the results depend on the processing

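Changing the background correction, scaling, filter or fit altered how many members passed but reversed no called direction. With dexamethasone in HESKOL liver, where 7 members passed, normexp and no filter each left 4 and unscaled deposited values left 2. Slide as a fixed block left 0, slide as a random block gave 11, and leaving out single arrays gave 0 to 9. The within-slide correlation estimated for the random block was -0.06, so its 11 is not a count with shared slide differences removed. In wild-type liver, where 1 passed, normexp, slide as a fixed block, the replicate block and a fit of the compared groups alone each left 0, and leaving out arrays gave 0 to 3. For the genotypes after dexamethasone, where 4 passed, quantile normalization, no filter and the replicate block each left 1, slide as a fixed block and the compared groups alone each left 0, and leaving out arrays gave 1 to 7. In the test of the difference leaving out arrays gave 0 to 1. With the replicate block 6 members passed in HESKOL liver; the labels give no pairing, and same-numbered arrays correlated by -0.40 to 0.62, so the numbers were not taken to pair the mice. The members' median with dexamethasone in wild-type liver was -0.05 under quantile normalization and -0.21 in the unscaled table, against 0.12 as reported. In that table the median of all genes moved to -0.35, so the members stayed 0.14 above it, and under quantile normalization they lay -0.0011 from it. Under normexp it moved to 0.18 and the members lay 0.15 below it (-0.15). In HESKOL liver the members lay 0.46 to 0.62 above all genes under every scaling tried. Of all genes called after dexamethasone by genotype, 60.7% were higher in HESKOL liver as reported, 44.3% under normexp and 84.7% in the unscaled table. For dexamethasone in wild-type liver 83.3% of calls were upward as reported, 95.7% under normexp and 40.5% in the unscaled table.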
